A study of Mus musculus with 19 samples.

Results

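Immunoglobulin and plasma cell genes were followed here through 7 genes, Igh-VJ558, Jchain, Mzb1, Sdc1, Irf4, Prdm1 and Pou2af1, by taking every probe of the array that carries 1 of these names. They are 7 of 14981 genes named on the array and had 10 of its 24048 probes, 2 each for Igh-VJ558, Sdc1 and Prdm1 and 1 for each of the others. The 2 Igh-VJ558 probes have no name in the array annotation and were named through the study's own gene tables, and Jchain is annotated under its older name Igj. The set was chosen by the normalized signals of Igh-VJ558 in the heart, which were already known, so OPP and water hearts are compared for these genes as a description with no test. Organ contrasts that use the water hearts were run with limma. For Igh-VJ558 they are a description as well, because those hearts took part in the choice.

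The signals came from 19 Illumina bead arrays, 1 organ of 1 mouse per array, of male inbred BALB/c mice that all received an atherogenic diet for 6 weeks and were 12 weeks old at the end. AD + DW mice drank distilled water (4 livers, 3 spleens and 3 hearts), and AD + OPP mice drank oil palm phenolics, a water-soluble extract given at about 1500 ppm gallic acid equivalent (3 of each organ). No animal was on a normal diet, so both groups of each comparison share the diet. Mice were housed several to a cage, the arrayed RNA was the most intact of 10 mice per group, outlying arrays had been removed by the authors, and the labels tie no array to a cage or an organ to a mouse.

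Plasma cells are the antibody-secreting end stage of B cells. They transcribe rearranged heavy and light chain genes at very high rates and fold and assemble the chains in an enlarged endoplasmic reticulum before secretion. The spleen is a major home of B cells and of newly formed plasma cells, whereas liver and heart tissue hold few of either.

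The roles of the 7 genes differ. Igh-VJ558 is the name of heavy chains of the J558 variable family, but which part of a heavy chain the probes of that name read was not examined here. Jchain joins IgM pentamers and IgA dimers, and Mzb1 is an endoplasmic reticulum protein that aids heavy chain assembly in B cells and plasma cells. Sdc1 (CD138) is the surface proteoglycan used to sort plasma cells, and is also made by epithelial cells and hepatocytes. Irf4 and Prdm1 (Blimp-1) are transcription factors that drive plasma cell differentiation, and Pou2af1 is the B cell coactivator of the octamer-binding factors.

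Jchain, Irf4 and Pou2af1, which were detected in the spleen alone, are shown by the 250 bases before their transcription start, from RefSeq on build GRCm38.p6 and 5′ to 3′ on the gene's strand. Capitals mark matches to the motifs searched on both strands, which were the octamer ATGCAAAT, the unfolded protein response element TGACGTGG, the ETS-IRF composite element (GGAA and GAAA with any 2 bases between) and the TATA box TATAAA.
Jchain, chr5:88527898-88528147, minus strand: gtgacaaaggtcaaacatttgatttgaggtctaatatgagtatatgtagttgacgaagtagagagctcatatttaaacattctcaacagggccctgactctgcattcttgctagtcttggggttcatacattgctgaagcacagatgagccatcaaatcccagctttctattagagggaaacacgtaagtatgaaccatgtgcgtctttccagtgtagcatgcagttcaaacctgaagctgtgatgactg
Irf4, chr13:30748983-30749232, plus strand: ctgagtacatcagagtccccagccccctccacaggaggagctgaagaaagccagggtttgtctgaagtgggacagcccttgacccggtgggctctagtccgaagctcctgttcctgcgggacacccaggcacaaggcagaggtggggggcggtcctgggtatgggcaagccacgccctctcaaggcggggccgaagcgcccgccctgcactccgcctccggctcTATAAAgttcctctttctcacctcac
Pou2af1, chr9:51213440-51213689, plus strand: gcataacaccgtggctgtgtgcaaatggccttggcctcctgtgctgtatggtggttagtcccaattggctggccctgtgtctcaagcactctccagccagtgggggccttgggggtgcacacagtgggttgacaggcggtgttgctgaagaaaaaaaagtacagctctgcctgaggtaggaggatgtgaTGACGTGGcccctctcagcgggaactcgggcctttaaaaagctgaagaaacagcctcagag
The Irf4 window held TATAAA from position -26, a match found in 12.4% of 32851 mouse promoter windows of the same length. The Pou2af1 window held TGACGTGG from position -61, present in 0.563% of them. The octamer, present in 1.6% of the windows, and the ETS-IRF composite element, present in 2.3%, had no match in these 3 windows, and the Jchain window matched none of the 4 motifs.

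Before the comparisons, tissue labels were checked against markers, and some arrays stood apart. The hepatocyte gene Apoa1 had a normalized signal of 63310 to 86860 on the 7 livers and the cardiomyocyte gene Myl2 one of 49600 to 66000 on the 6 hearts. The B cell receptor subunit Cd79a was detected on all 6 spleens (296.8 to 747.8) and on no liver or heart. Some spleens also carried digestive enzyme genes of pancreatic acinar cells. On a list of 24 such genes written after the values were seen, 17 had a probe, and these supplied 5.98% of the summed signal of spleen AD + DW replicate 1, 12.6% of AD + DW replicate 3 and 4.46% of AD + OPP replicate 1. Their share was 0.00896% to 0.00978% on the other 3 spleens. Liver AD + DW replicate 3 had 0.478%, against 0.005% to 0.0107% on the other livers, and no heart array detected any of these probes. Spleen results are therefore also given without the 3 spleens, which leaves 1 AD + DW against 2 AD + OPP arrays.

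**Figure D1:**
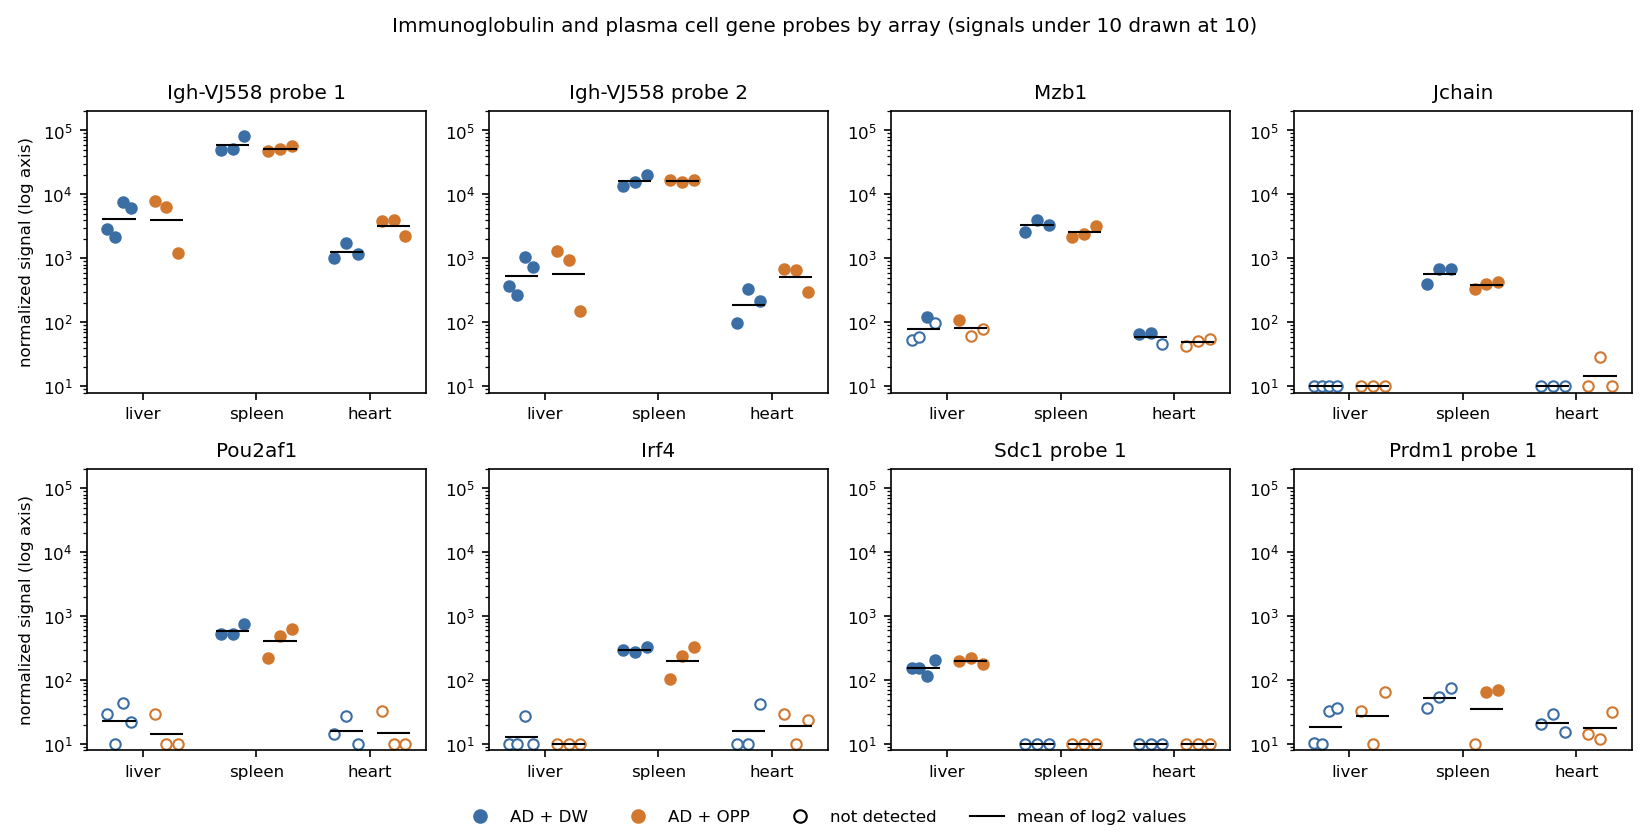
Normalized signal (log axis) of 8 of the 10 probes on each array, by organ and drinking fluid. Filled points are detected, open points are not, horizontal lines are group means of log2 values, and signals under 10 are drawn at 10. Igh-VJ558 was the only gene of the set detected on all 19 arrays, and the other genes were bright in 1 organ or in none.

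In the AD + DW mice 5 of the 7 genes were brighter in the spleen than in the other organs, of which only Igh-VJ558 and Mzb1 were shown to be far brighter. Sdc1 was brighter in the liver, and Prdm1 was too dim to test. Organ levels were compared on jointly quantile-normalized signals, because the deposited normalization had been made within each organ, and these signals still hold background, which shrinks fold differences. Igh-VJ558 probe 1 was 17.4-fold higher in the spleen than in the liver (difference of mean log2 signal 4.12 ± 0.34, SE, 3 against 4 arrays, limma adjusted p = 3.69e-07) and probe 2 was 28.1-fold higher (4.81 ± 0.29, adjusted p = 2.08e-08). Mzb1 was 19-fold higher (4.25 ± 0.15, adjusted p = 1.76e-10). Probe 1 had non-normalized signals of 50365 to 62203 on the spleens, near the highest signal of any probe on those arrays (61999 to 68386), so that its fold is less exact than that of probe 2. With the background removed first, the same differences came to 18.4-fold, 38.3-fold and 52-fold.

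Jchain, Pou2af1 and Irf4 were detected on every AD + DW spleen and on no AD + DW liver, so that only a bound can be given. Spleen signal was at least 3.07-fold higher for Jchain, 3.22-fold for Pou2af1 and 1.9-fold for Irf4. For these bounds, which were not tested, the dim organ was set at the higher of its own signal and the lowest detected signal of each array. The limma test used the signals without this setting (adjusted p = 2.16e-08 for Jchain, 1.33e-08 for Pou2af1 and 5.74e-07 for Irf4). These genes entered that test only through the spleens, where they were high, so its p-values add no support to the direction. Sdc1 probe 1 went the other way. It was detected on the 4 livers and on no spleen, and by the same kind of bound was at least 1.24-fold higher in the liver. Without the bound the difference was 2.11-fold (log2 difference -1.08 ± 0.11, spleen minus liver, limma adjusted p = 1.99e-06). The 7 member probes tested all passed the limma test, 6 of them higher in the spleen, against 79.4% of all 7182 probes tested in this contrast (41.0% higher and 38.4% lower in the spleen), so that passing alone set the genes apart little and the size of the differences carries the description. Only the Igh-VJ558 probes were detected on every array of both organs. The rest entered through the organ where they were high, which largely set their direction.

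Against the heart the same genes were higher in the spleen. The spleen was 33.6-fold higher for Igh-VJ558 probe 1 and 45.8-fold for probe 2, 19.5-fold for Mzb1, and at least 3.16-fold for Jchain, 3.31-fold for Pou2af1 and 1.95-fold for Irf4. The limma adjusted p, from the signals without the bounds, ran from 2.55e-10 (Mzb1) to 8.28e-07 (Irf4). For Igh-VJ558 the water hearts had taken part in choosing the set, so its p-values here add no support. In this contrast 76.5% of 7288 probes passed, 35.9% higher in the spleen. Apart from Igh-VJ558, the member probes entered it only through the spleens, where they were high, which largely set their direction. Neither Prdm1 probe, nor Sdc1 probe 2, was detected on enough arrays to be tested in any organ contrast. Prdm1 probe 1 was detected on 2 spleens, both AD + OPP (66.6 and 70.9), while the other 4 spleens had signals of 8.7 to 75.9 that were not detected.

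Between liver and heart, Igh-VJ558 was only slightly apart. The water hearts had taken part in choosing the set, so the p-values of Igh-VJ558 here cannot decide whether the organs differ. Liver was 1.93-fold above heart at probe 1 (log2 difference 0.95 ± 0.33, limma adjusted p = 0.0221) and 1.63-fold at probe 2 (0.70 ± 0.28, adjusted p = 0.0393), in a contrast where 73.3% of 7422 probes passed. In the AD + OPP arrays of the same organs the sign turned (-0.34 and -0.10, adjusted p = 0.54 and 0.841), and without liver AD + DW replicate 3 both calls were lost (0.66 and 0.48, adjusted p = 0.0555 and 0.108). They were also lost without liver replicate 4 (0.82 and 0.61), heart replicate 1 (0.81 and 0.48) or heart replicate 3 (0.88 and 0.72). Sdc1 probe 1 was at least 1.28-fold higher in the liver than in the heart by the bound, and 2.4-fold higher without it (limma adjusted p = 3.22e-07). It entered this contrast only through the livers, where it was high.

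**Figure D2:**
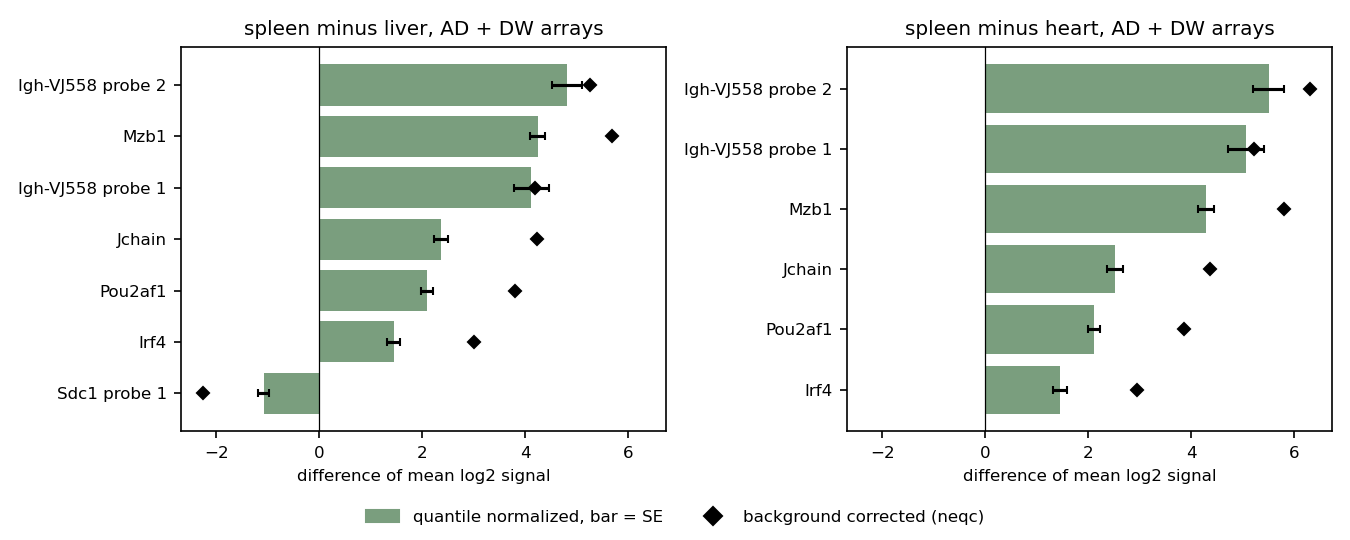
Difference of mean log2 signal between the spleen and each other organ in AD + DW arrays, with bars for quantile-normalized signals, whiskers for the SE and diamonds for background-corrected signals. Igh-VJ558 and Mzb1 have the longest bars, and Sdc1 probe 1 is the one bar below 0.

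Spleens given OPP were next compared with those given water, on the deposited normalized signals. Igh-VJ558 probe 1 read 50195, 51128 and 83169 in AD + DW replicates 1 to 3 and 48039, 50905 and 57158 in AD + OPP. The groups overlapped, with AD + DW replicate 3 far above the other 5. Probe 2 read 13456, 15590 and 19783 against 16564, 15719 and 16789. The limma log2 fold change was -0.20 ± 0.24 (SE, adjusted p = 0.707) for probe 1 and 0.03 ± 0.19 (adjusted p = 0.963) for probe 2. Probe 1 ranked between place 2 and place 8 of the array on every spleen.

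Mzb1 read 2599, 3987 and 3368 with water and 2191, 2448 and 3226 with OPP, with overlapping groups (log2 fold change -0.34 ± 0.23, limma adjusted p = 0.524). Jchain read 398, 675 and 671 with water and 336, 403 and 426 with OPP. The OPP arrays were thus in the lower range, but AD + DW replicate 1 lay among them (-0.55 ± 0.25, adjusted p = 0.335). Without the 3 spleens with pancreatic genes the Jchain fold change was -0.70 (adjusted p = 0.388) and that of Mzb1 -0.50 (adjusted p = 0.586), from 1 water array.

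Pou2af1 read 521, 532 and 771 with water and 220, 496 and 628 with OPP (-0.55 ± 0.40, limma adjusted p = 0.549). Irf4 read 294, 280 and 329 with water and 106, 238 and 329 with OPP (-0.57 ± 0.40, adjusted p = 0.529). For both transcription regulators 1 array, AD + OPP replicate 1, gave the low value. Without that array the log2 fold change was -0.10 for Pou2af1 and for Irf4. Without the 3 spleens with pancreatic genes it was 0.07 and -0.00, respectively.

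None of the 6 member probes tested in the spleen passed limma at an adjusted p of 0.05, and neither did any of the 6664 probes tested (0.0%), of which 1100 had an unadjusted p under 0.05. The methods' t-test called 0 as well, with 929 under an unadjusted p of 0.05. Of the 5 genes, by the brightest probe, all 5 had a lower mean with OPP, with a median log2 fold change of -0.55 against -0.07 over all probes tested, of which 58.2% were lower and 41.8% higher. Without AD + OPP replicate 1 the median of the 5 genes was -0.15, and without the 3 spleens with pancreatic genes -0.00 (3 lower, 2 higher). No member's groups were free of overlap in the spleen, compared with 12.3% of all probes lower and 11.1% higher without overlap. In a whole organ, fewer cells of a type and less RNA per cell cannot be told apart.

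The other immunoglobulin probes of the array split the spleens in another way. By the segment named in their probe IDs, 203 probes belong to immunoglobulin chains, and 115 of them could be tested in the spleen (10 in the liver and 7 in the heart). The kappa constant probe IGKC read 41713, 42353 and 72066 with water and 35732, 41269 and 44345 with OPP (-0.32 ± 0.25, limma adjusted p = 0.579). The heavy constant probes behaved unequally. IGHG2C, of the IgG2 class, read 6758, 4061 and 13304 against 8718, 9560 and 13751 (0.55 ± 0.43, adjusted p = 0.577). IGHM, the constant region of IgM, read 8620, 4990 and 12358 against 2464, 6045 and 5280 (-0.92 ± 0.44, adjusted p = 0.365). IGHA, of IgA, read 975, 957 and 1493 against 333, 1492 and 1797 (-0.21 ± 0.62, adjusted p = 0.892). The lambda constant probe IGLC2 was the one constant region with spleen groups free of overlap, at 5124, 3078 and 4468 against 1330, 2552 and 2402 (-1.04 ± 0.31, adjusted p = 0.162). Of all 6664 probes tested in the spleen 12.3% were lower without overlap, so this alone does not set IGLC2 apart.

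Variable segments were low on a single array, AD + OPP replicate 1. A probe could be tested when all arrays of either group had detected it, and 45 of the 115 chain probes passed only through the water arrays, so counts of low or lower probes are given over those detected on all 6 spleens. The 39 heavy variable probes tested had medians of 453, 217 and 538 on the water arrays and 27.5, 412 and 809 on the OPP arrays. The 68 kappa variable probes had medians of 1040, 925 and 2220 with water and 162, 1230 and 1840 with OPP. On AD + OPP replicate 1, 9 of the 39 and 53 of the 68 were detected. These counts and the medians above are partly set by the entry of probes through the water arrays alone. All 9 heavy and all 51 kappa variable probes detected on every spleen had their lowest signal on this array, which was the lowest for 25% of all 5187 such probes. The brightest kappa segments show the size. IGKV12-41 read 6144, 4402 and 8961 with water and 1036, 6384 and 10606 with OPP, and IGKV4-57 read 6527, 4549 and 10401 against 673, 6303 and 10728. Among heavy segments IGHV9S6 read 2251, 1112 and 1844 with water and 113, 1862 and 3069 with OPP.

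Among these probes the median heavy variable probe lay 11.4-fold, and the median kappa variable probe 8.84-fold, below the median of the other 5 spleens, whereas IGKC lay 1.19-fold below and the 6 probes of the gene set a median of 1.37-fold. The Igh-VJ558 probes read 48039 and 16564 on AD + OPP replicate 1, against 50195 to 83169 and 13456 to 19783 on the other 5 spleens. They were thus not low there as the heavy variable probes were, and whether they read a variable or a constant region was not tested. The array was also 1 of the 3 with pancreatic acinar genes, whose part in these values was not tested. Of the 68 chain probes detected on every spleen, 67 had a lower mean with OPP (median log2 fold change -0.89, 0 called), against 61.5% of all such probes. Without AD + OPP replicate 1, 50 of the 68 were higher (median 0.24). The direction of the chain probes in the spleen therefore rested on 1 array.

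**Figure D3:**
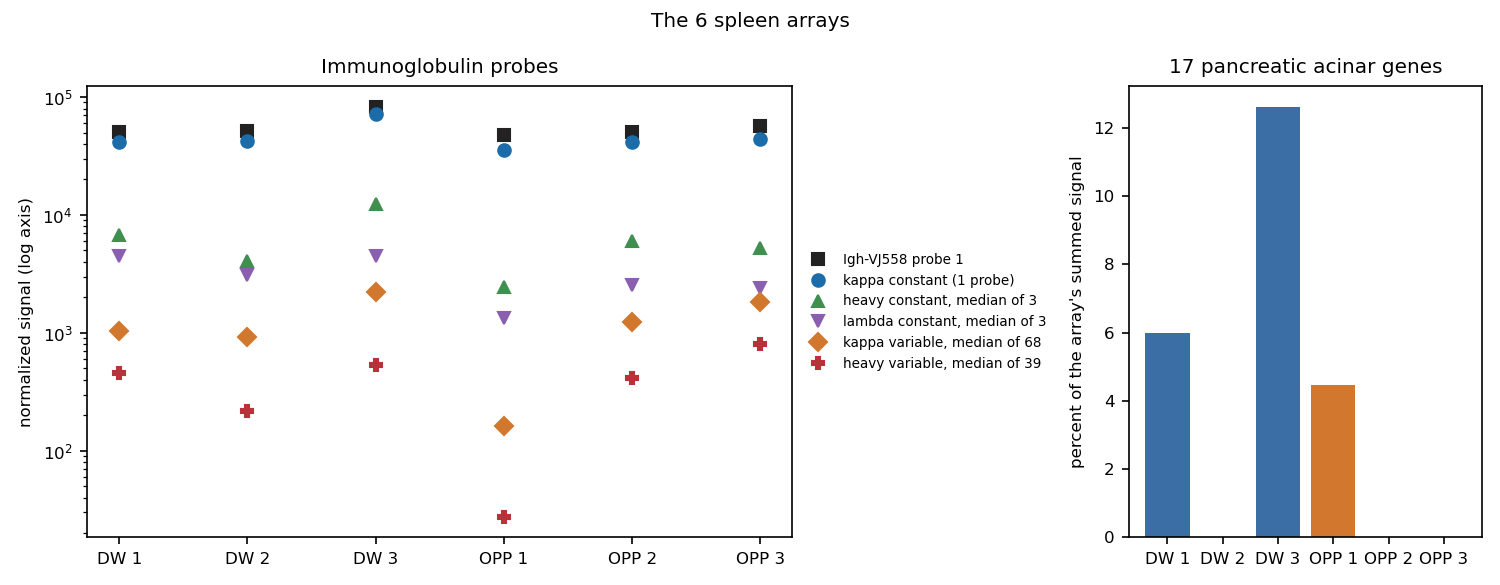
The 6 spleen arrays. On the left is the normalized signal (log axis) of Igh-VJ558 probe 1, the kappa constant probe, and the median of the heavy constant, lambda constant, kappa variable and heavy variable probes tested, and on the right the share of each array's summed signal from 17 pancreatic acinar genes. Kappa and heavy variable medians are 162 and 27.5 on AD + OPP replicate 1, where Igh-VJ558 reads 48039. These medians include probes that passed the filter only through the water arrays.

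Genes that work beside the set were counted from lists, each gene by its brightest probe. Of 35 genes of the plasma cell secretory program, 20 could be tested in the spleen, 2 of them only through the water arrays. Of the 18 detected on every spleen, 15 had a lower mean with OPP (83.3%, against 61.5% of all such probes), with a median of -0.18 and 0 called. Groups were without overlap for 3 lower (16.7%) and 1 higher (5.56%) of the 18. Of all such probes 13.7% were lower and 9.58% higher in that way. Over all 20 genes 17 were lower (median -0.21), and without the 3 spleens with pancreatic genes 12 of the 20 (median -0.13). Ell2, the elongation factor that favours secreted heavy chain RNA, averaged 414 ± 72.8 (SD, n = 3) with water and 242 ± 29.5 with OPP (-0.77 ± 0.19, SE, limma adjusted p = 0.111). Tnfrsf17 (BCMA), the survival receptor of plasma cells, averaged 442 ± 127 and 253 ± 34.3 (-0.77 ± 0.25, adjusted p = 0.188), and the kinase Pim2 155 ± 7.23 and 100 ± 17.7 (-0.64 ± 0.18, adjusted p = 0.136). These 3 genes had groups without overlap. Several of the list's genes serve secretion in any gland cell, and the acinar genes differed between these arrays as given above. Their part in the result was not tested.

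B cell markers had a lower median than the plasma cell genes. Of 16 B cell genes tested in the spleen, 3 passed only through the water arrays. Of the 13 detected on every spleen, 12 had a lower mean with OPP and 11 were lower without overlap (84.6%, against 13.7% of all such probes), with a median of -0.94 and 0 called. Cd79b averaged 1770 ± 201 (SD, n = 3) with water and 792 ± 106 with OPP (-1.17 ± 0.18, SE, limma adjusted p = 0.0712). Cd79a averaged 650 ± 99.8 and 336 ± 34.5 (-0.94 ± 0.18, adjusted p = 0.077). Over the 16 genes the median was -1.12 with all arrays, -0.84 without AD + OPP replicate 1 and -0.64 without the 3 spleens with pancreatic genes.

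Among regulators of B cell and plasma cell fate, 7 were tested, of which Spi1 passed only through the OPP arrays. Spi1 was high on those arrays, which largely set its direction. The 6 other regulators were detected on every spleen, and 4 had a lower and 2 a higher mean with OPP (median -0.44). Spi1, a myeloid and B cell factor, averaged 103 ± 45.6 (SD, n = 3, detected on 2) with water and 315 ± 85.5 with OPP (1.67 ± 0.34, SE, limma adjusted p = 0.0786). Irf8 averaged 1860 ± 217 and 923 ± 215 (-1.03 ± 0.22, adjusted p = 0.0786), and Id3 278 ± 45.1 and 146 ± 24.2 (-0.93 ± 0.20, adjusted p = 0.0817). Of 9 homing and survival genes tested, 2 passed only through the OPP arrays. Of the 7 detected on every spleen, 5 had a lower and 2 a higher mean with OPP (median -0.20). Groups were without overlap for 2 lower (28.6%) and 1 higher (14.3%), against 13.7% and 9.58% of all such probes. Cd86 (-0.95 ± 0.19, adjusted p = 0.0786) and Itgb7 (-0.85 ± 0.21, adjusted p = 0.103) had lower signals with OPP, and Tnfsf13 (APRIL), a plasma cell survival ligand, had higher ones (888 ± 155 against 1510 ± 258, 0.77 ± 0.21, adjusted p = 0.129). The 5 immunoglobulin receptor and transport genes were all detected on every spleen, and 3 had a higher and 2 a lower mean with OPP (median 0.22). Fcgr4 was higher without overlap (0.77 ± 0.20, adjusted p = 0.116) and B2m lower without overlap (-0.61 ± 0.21, adjusted p = 0.213), each 20.0% of this list.

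Markers of other cells moved in the same arrays. Of 15 neutrophil genes 13 were detected on every spleen, and all 13 had higher means with OPP, 11 without overlap (84.6%, against 9.58% of all such probes, median 1.97). The summed signal of the 15 ran from 55010 to 128300 with water and from 173500 to 190500 with OPP. Of 10 T and NK cell genes detected on every spleen 9 had lower means (median -1.02, 8 without overlap), and of 10 macrophage genes 10 (median -0.73, 5 without overlap), against 13.7% of such probes lower without overlap. Over all tested genes of these lists the median moved from -1.09 to -0.71 (T and NK) and from -0.72 to -0.38 (macrophage) without AD + OPP replicate 1, and to -0.25 and -0.02 without the 3 spleens with pancreatic genes. None of these genes was called by limma. The part of these cells in the values of the gene set was not tested.

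**Figure D4:**
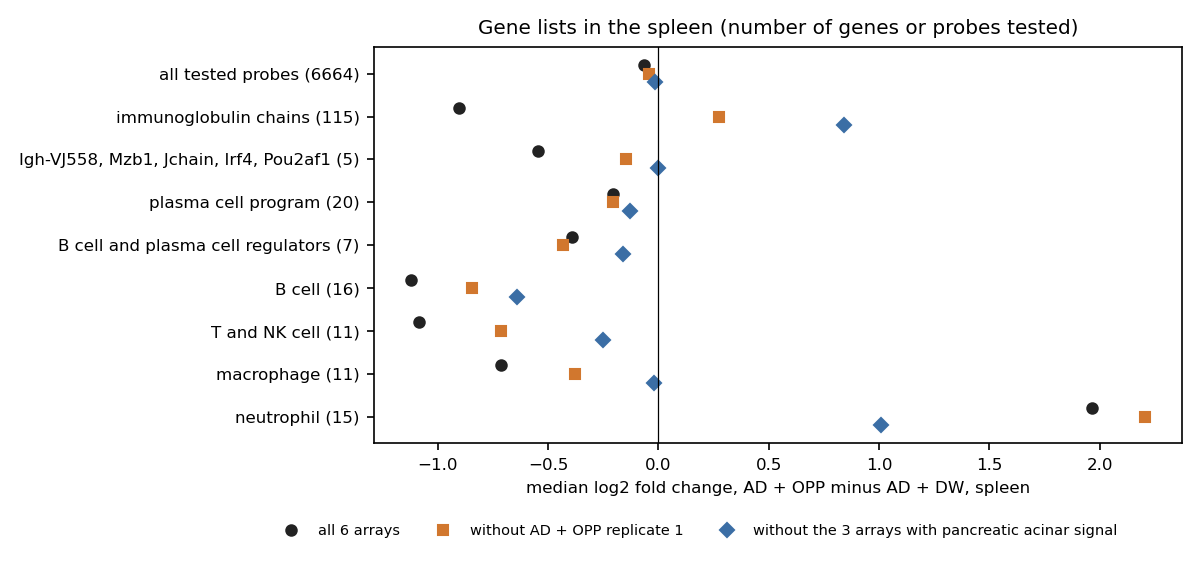
Median log2 fold change (AD + OPP minus AD + DW) of the tested genes of each list in the spleen, from all 6 arrays, without AD + OPP replicate 1, and without the 3 arrays with pancreatic acinar signal. The immunoglobulin chains move from -0.90 to 0.27 and 0.84, while the B cell list stays below 0 at -1.12, -0.84 and -0.64. Of these, 45 of the 115 chain probes and 3 of the 16 B cell genes passed the filter only through the water arrays. Over those detected on every spleen the medians from all 6 arrays were -0.89 and -0.94.

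In the liver, Igh-VJ558 varied more among mice of a group than between groups. Probe 1 read 2929, 2187, 7717 and 6028 in AD + DW replicates 1 to 4 and 7921, 6314 and 1217 in AD + OPP. The OPP group held both the highest and the lowest of the 7 livers, 6.51-fold apart. Probe 2 read 371, 266, 1044 and 746 with water and 1312, 952 and 150 with OPP, with the same highest and lowest liver. The log2 fold change was -0.08 ± 0.70 (SE, limma adjusted p = 0.982) for probe 1 and 0.12 ± 0.78 (adjusted p = 0.974) for probe 2. Without AD + OPP replicate 3 these became 0.77 and 1.09.

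The kappa constant probe followed a similar order over the livers. IGKC read 1943, 1879, 7330 and 5201 with water and 4830, 3324 and 1225 with OPP (-0.35 ± 0.62, limma adjusted p = 0.885). Of 10 immunoglobulin chain probes tested in the liver, 6 passed only through the water arrays. The 4 detected on every liver had lower means with OPP (median -0.19, 0 called), where 49.6% of all such probes were lower. This rested on single arrays. Over the 10 probes 6 were higher without AD + OPP replicate 3 (median 0.26), and 5 without AD + DW replicate 3 (median -0.06), against 0 with all arrays (median -0.42). Liver AD + DW replicate 3, which carried pancreatic genes, was the highest water liver for both Igh-VJ558 probes and for IGKC. No B cell marker was detected on every liver, and 16 of 20 were detected on none.

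Sdc1 probe 1 read 156.6, 156.6, 115 and 204 in AD + DW livers and 200, 219 and 177 in AD + OPP livers. The groups overlapped (0.35 ± 0.20, limma adjusted p = 0.633). Mzb1 was detected on 1 liver of each group, and Jchain, Irf4, Prdm1 and Pou2af1 on none. Of the 3 member probes tested in the liver none passed, as for all 6007 probes tested (0.0%, 495 with an unadjusted p under 0.05). Of the plasma cell secretory list, 18 genes were tested. Pdia4, an endoplasmic reticulum disulfide isomerase, averaged 711 ± 38.9 (SD, n = 4) with water and 1160 ± 106 (n = 3) with OPP (0.71 ± 0.12, SE, adjusted p = 0.417), and Creld2 396 ± 101 and 1290 ± 797 (1.58 ± 0.38, adjusted p = 0.59). Both were without overlap, as were 4 of the 18 genes in all, compared with 4.01% of all probes higher and 4.36% lower without overlap. Hepatocytes use the same folding machinery, and the list's median was 0.02.

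The response of Igh-VJ558 to OPP was compared directly between spleen and liver. The difference, spleen minus liver, was -0.12 ± 0.83 at probe 1 (SE, limma adjusted p = 0.958) and -0.10 ± 0.91 at probe 2 (adjusted p = 0.976), while 10 of 4639 probes passed (0.216%). The other members were tested in 1 of these organs or in neither.

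**Figure D5:**
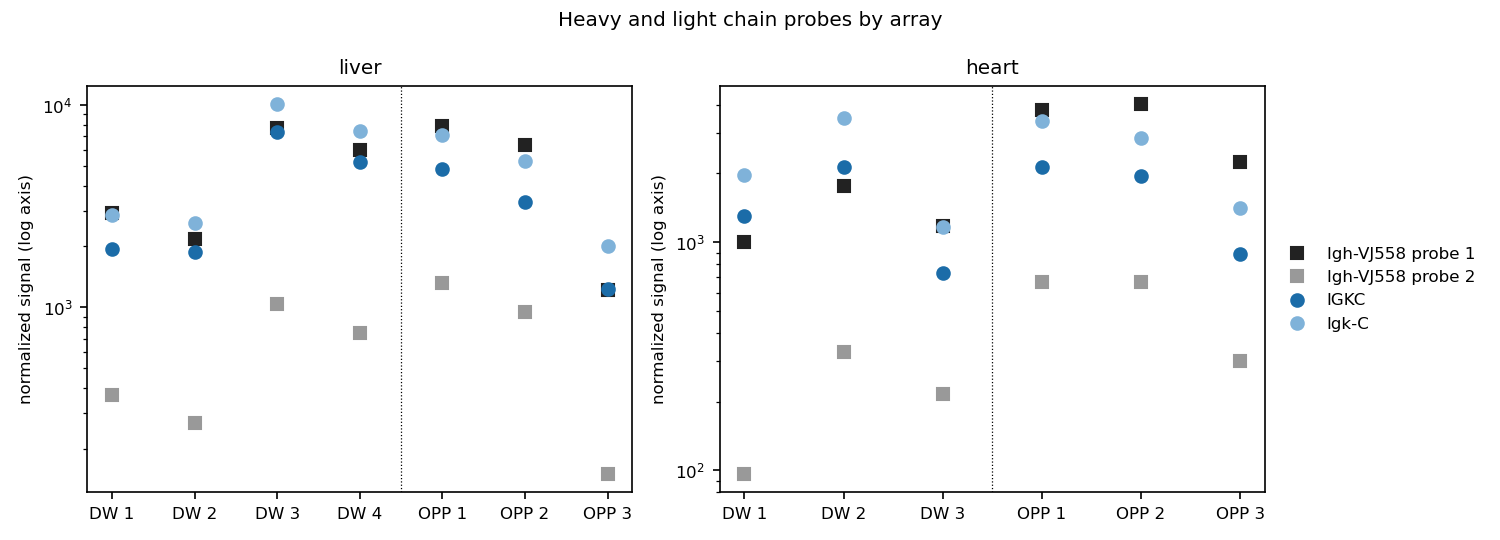
Normalized signal (log axis) of both Igh-VJ558 probes and both kappa constant probes (IGKC and Igk-C) on each liver and heart array. In the liver all 4 probes are lowest on AD + OPP replicate 3, and in the heart the Igh-VJ558 probe 1 points of AD + OPP (2241 to 4014) lie above those of AD + DW (1006 to 1768) while the kappa points intermingle.

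In the heart, where Igh-VJ558 chose the gene set, probe 1 read 1006, 1768 and 1174 with water and 3781, 4014 and 2241 with OPP. The 3 OPP hearts were above the 3 water hearts, the lowest OPP heart being 2241 and the highest water heart 1768. Means were 1320 ± 400 (SD, n = 3) and 3350 ± 963, a 2.53-fold difference (log2 fold change 1.34 ± 0.28, SE). Probe 2 read 96.3, 330 and 216 with water and 671, 668 and 301 with OPP. Its groups overlapped, since water replicate 2 exceeded OPP replicate 3 (2.7-fold, 1.43 ± 0.48). Over all 6580 heart probes tested, 4.16% were higher without overlap, 0.41% were at least 2-fold higher, and 0 passed limma (0.0%, 239 with an unadjusted p under 0.05).

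Light chains gave smaller differences in the same hearts. IGKC read 1299, 2127 and 735 with water and 2142, 1949 and 883 with OPP (0.29 ± 0.45), and Igk-C 1970, 3504 and 1166 against 3386, 2855 and 1413 (0.25 ± 0.45). Of 7 chain probes that passed the filter in the heart, 4 did so only through the OPP arrays. The 3 detected on every heart had higher means with OPP (median 0.28), where 51.1% of all such probes were higher. IGHA read 33.8, 57.7 and 43.2 with water, detected on none, and 102, 93.9 and 64.8 with OPP, detected on 2. IGHM and IGHG2C were each detected on 1 heart of each group.

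Other members gave little signal in the heart. Mzb1 was detected on 2 water hearts and no OPP heart (46 to 67 against 42.4 to 55), and Jchain, Sdc1, Irf4, Prdm1 and Pou2af1 on none. No B cell marker was detected on every heart, and 18 of 20 were detected on none. Of 16 plasma cell secretory genes 2 passed the filter only through the OPP hearts. Of the 14 detected on every heart 9 had a higher mean with OPP (64.3%, against 51.1% of all such probes). Their median was 0.032, against 0.004 over all such probes. The Fc receptor Fcgr2b averaged 122 ± 55.3 (SD, n = 3) with water and 225 ± 67.5 with OPP (0.93 ± 0.32, SE), with overlapping groups. All 9 macrophage genes (median 0.51, summed signal 2596 to 3593 with water and 3426 to 5343 with OPP) had higher means with OPP. So did the 2 neutrophil genes detected on every heart, while 4 others passed only through the OPP hearts (summed signal of the 6 from 340.7 to 14590 and from 6010 to 23520), and 7 cardiomyocyte genes had a median of -0.01. Their part in the heart values of Igh-VJ558 was not tested.

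Probes with the profile most like Igh-VJ558 probe 1 were sought over the 19 arrays, after each organ's mean log2 signal was set to 0, among 3055 named probes detected on every array. Igh-VJ558 probe 2 was the closest (root mean square difference 0.24 log2 units, where the median probe was at 0.76). C1qa (0.33), Cd53 (0.37), Tmem176b (0.38) and C1qc (0.39) followed, of which C1qa and C1qc encode complement subunits made by macrophages and Cd53 a leukocyte tetraspanin. In the livers C1qa read 300, 309, 520 and 560 with water and 690, 707 and 156.6 with OPP, so that OPP replicate 3 was lowest as for Igh-VJ558. In the hearts C1qa read 159, 205 and 168 with water and 349, 252 and 205 with OPP. The arrays share normalization, and this likeness is a description with no test. For Jchain, at the floor on nearly every liver and heart, the closest were Uqcc2 (0.30), Laptm4a (0.30), 4933434E20Rik (0.31), Lage3 (0.32) and Emg1 (0.33), against a median of 0.44.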

How the data were processed

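Expression was measured on 19 Illumina MouseRef-8 version 1 arrays of 3 organs, 1 array per mouse organ. The authors extracted signals in BeadStudio (1.5.1.3 in the submitters' processing notes), normalized intensity by the rank invariant method within each organ and deposited normalized and non-normalized intensity tables with a detection p-value per probe. The deposited non-normalized intensity still holds background. Detected means a detection p-value under 0.01.

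A floor of 10 was set on the normalized signals before log2 was taken. A probe entered the test when all arrays of 1 of the 2 groups had detected it, and was tested within each organ with limma 3.58.1 (R 4.3.3), two-sided, with Benjamini-Hochberg adjustment over all tested probes and a threshold of 0.05. The study's error model needs bead-level spread, and limma was used in its place. Organ levels were compared after quantile normalization of the non-normalized signals over 19 arrays. Where a list gene had several probes the brightest was used, and every probe of the 7 genes is given. Of each list at most the 4 genes with the smallest p (in the heart, the largest fold) were named, apart from IGKC, Igk-C, the other constant regions and the brightest variable segments, which were chosen after their values were seen, as was the pancreatic list. The genes and lists were chosen with earlier results of these data known. The fit was tested on simulated data. The number of arrays limits precision, and slide and scan were not given in the sources used here. Same-numbered arrays of the 2 groups did not deviate together (correlations of -0.281, -0.397 and 0.051 for livers, 0.018, 0.002 and 0.189 for spleens, -0.159, 0.116 and 0.086 for hearts). Gene names came from GEO's platform annotation (19398 probes), probe IDs (203) and the study's tables (3).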

Additional observations from a re-analysis of the deposited data

How the results depend on the processing

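Across other settings no member probe passed at an adjusted p of 0.05 for OPP in liver or spleen (135 refits of 9 results, 15 with the sign turned), and all 163 refits of the 13 spleen against liver or heart results kept sign and call. Apart from Igh-VJ558, the probes of these organ results had entered through the organ where they were high, so the kept sign adds little. Small Igh-VJ558 fold changes had no stable sign. In the liver, with the replicate number as a block, probe 1 moved to 0.10, and leaving out 1 array turned probe 1 to between 0.10 and 0.77 and probe 2 to between -0.48 and -0.05 (over all such refits -0.58 to 0.77 and -0.48 to 1.09). In the spleen probe 1 became 0.21 after background correction with quantile normalization, 0.19 after scaling to the 75th percentile, 0.0773 without the arrays with pancreatic genes (added after seeing the data) and at most 0.0348 with 1 array left out (-0.33 to 0.0348). Probe 2 ran from -0.10 to 0.17 with 1 array left out, Mzb1 was 0.0483 with the 75th percentile scaling, and Pou2af1 0.0702 without the arrays with pancreatic genes. The spleen minus liver difference became 0.27 and 0.21 (probes 1 and 2) after background correction, 0.34 and 0.30 with the 75th percentile scaling, and ran from -0.97 to 0.38 and -1.06 to 0.50 with 1 array left out. For liver against heart the AD + OPP arrays gave -0.34 and -0.10 for probes 1 and 2, and 22 of 39 refits kept the call.

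Of all probes, the spleen calls rose from 0 to 5 without the detection filter, 222 with a trended robust variance (140 higher, 82 lower) and 254 in 1 fit over 19 arrays (160 higher, 94 lower), and ran from 0 to 168 with 1 array left out, 168 without AD + DW replicate 2. None was a member. The heart gave 3 without the filter. The spleen minus liver calls went from 10 to 5 after background correction, 25 without the filter, 0 with the replicate block, 1 without the arrays with pancreatic genes and 0 to 55 with 1 array left out. The Student's t-test, which was not the study's test for its arrays, called 0 in each organ after Benjamini-Hochberg adjustment (470, 929 and 220 probes under an unadjusted p of 0.05 in liver, spleen and heart). The replicate block changed no OPP call, and for Igh-VJ558 in liver against heart gave 0.82 and 0.61 (limma adjusted p = 0.0595 and 0.0841). Heart fold changes of Igh-VJ558 ran from 1.17 to 1.61 at probe 1 and 0.94 to 1.83 at probe 2 with 1 array left out, and probe 2 gave 0.94 with the 75th percentile scaling. The causes were not tested. Dim probes, near background in liver and heart, limit what the set can show there.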
